A study of Mus musculus with 6 samples.

Results

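The 30 genes described here act in the making, sensing, movement and export of cholesterol, and were taken from the deposited table by gene symbol, where all 30 of them were found among 21829 genes. They comprised 20 genes of synthesis (8 of the mevalonate steps and 12 of the sterol steps), the 4 sensing genes Srebf2, Scap, Insig1 and Insig2, the sterol carrier gene Stard4, the liver X receptor (LXR) genes Nr1h2 and Nr1h3, the efflux transporter genes Abca1 and Abcg1, and the esterification gene Soat1. They were measured by mRNA sequencing of epididymal white fat, a visceral depot next to the testis, in 3 libraries labelled ZFP251 knockout (KO) and 3 labelled wild type (WT). All 6 libraries came from male C57BL/6J mice aged 20 weeks and fed a normal diet, and the wild-type mice were littermates. The labels give neither the allele nor the tissues in which it was deleted, and no label says that each library came from a separate mouse, so a p-value below reflects only how far these libraries differ among themselves, some of which may be technical.

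Cells make cholesterol from acetyl-CoA through the mevalonate pathway, and the enzymes are switched on together when membrane sterol is low: the membrane protein SCAP then carries the transcription factor SREBP, encoded by Srebf2, out of the endoplasmic reticulum, whereas INSIG proteins hold it there when sterol is plentiful. The LXR nuclear receptors sense oxysterols and switch on the transporters ABCA1 and ABCG1, which pass cholesterol to lipoproteins outside the cell. White fat cells hold much of the free cholesterol of the body at the surface of their lipid droplets and take up most of it from lipoproteins, while fat tissue macrophages export cholesterol through the same transporters.

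SREBP binds sterol regulatory elements, usually beside CCAAT boxes bound by the factor NF-Y, and the stretches upstream of the genes are shown because most synthesis genes varied together in the WT libraries described below. RefSeq promoter windows (GRCm38.p6, the assembly of mm10) were matched by symbol for 25 of the 30 genes, and the 250 bases before each transcript start were searched on both strands. CCAAT was found upstream of 20 of the 25 genes, against 40% of the 9868 tested genes with a window. They were 16 of the 17 synthesis genes with a window, and Srebf2, Insig1, Insig2 and Soat1. It was found in 0 of the 3 efflux and LXR genes with a window. Hmgcs1, Lbr and Hsd17b7 also had a match, though they did not share the WT pattern described below. The form TCACNCCAC of the sterol regulatory element was found upstream of 1 of the 25 genes, Hmgcs1, against 1.24% of tested genes. An exact direct repeat of AGGTCA with 4 bases between, the kind LXR binds, was found upstream of 0 of the 25, against 0% of tested genes. Since 0% of tested genes held this exact repeat, the search cannot tell whether looser LXR sites are present, and those were not searched for. In Hmgcs1 the TCACNCCAC match overlaps no CCAAT match. These are matches of letters in a short window, not sites shown to be bound, and a site that departs from the exact letters is missed. The 200 bases before the transcript start are given, on the gene's strand, for Hmgcs1 (chr13:119690151-119690350, plus strand), with the sterol regulatory element form, for Mvk (chr5:114444069-114444268, plus strand), Mvd (chr8:122443423-122443622, minus strand) and Nsdhl (chrX:72918321-72918520, plus strand), which varied together, and for the efflux gene Abca1 (chr4:53159896-53160095, minus strand), which has no match to the exact forms searched. Capitals mark TCACNCCAC and CCAAT on either strand.
Hmgcs1: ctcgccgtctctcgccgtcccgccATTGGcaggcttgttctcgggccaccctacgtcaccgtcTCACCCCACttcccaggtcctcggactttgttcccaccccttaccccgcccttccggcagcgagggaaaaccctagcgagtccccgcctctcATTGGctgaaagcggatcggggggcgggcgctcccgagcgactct
Mvk: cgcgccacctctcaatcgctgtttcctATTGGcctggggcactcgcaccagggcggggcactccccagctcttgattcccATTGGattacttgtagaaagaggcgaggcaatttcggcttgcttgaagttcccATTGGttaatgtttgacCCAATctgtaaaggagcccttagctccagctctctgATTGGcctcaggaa
Mvd: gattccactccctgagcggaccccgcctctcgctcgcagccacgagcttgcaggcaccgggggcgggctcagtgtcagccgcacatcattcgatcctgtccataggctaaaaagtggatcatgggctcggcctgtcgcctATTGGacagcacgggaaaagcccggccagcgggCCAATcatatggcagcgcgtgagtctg
Nsdhl: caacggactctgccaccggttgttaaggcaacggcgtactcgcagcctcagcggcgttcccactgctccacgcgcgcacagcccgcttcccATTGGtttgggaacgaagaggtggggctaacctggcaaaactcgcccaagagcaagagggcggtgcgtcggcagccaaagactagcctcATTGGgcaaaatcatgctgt
Abca1: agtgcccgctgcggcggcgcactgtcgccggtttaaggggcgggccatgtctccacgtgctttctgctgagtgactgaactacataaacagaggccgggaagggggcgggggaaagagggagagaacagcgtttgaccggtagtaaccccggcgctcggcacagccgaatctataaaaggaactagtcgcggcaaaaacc

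Facts about the libraries bear on every comparison. Zfp251, the targeted gene, checks the labels and went against them, with 6.48, 5.86 and 6.48 FPKM in KO 1 to KO 3 against 3.73, 3.56 and 2.95 FPKM in WT 1 to WT 3. FPKM are fragments scaled by transcript length and library total. The groups did not overlap, limma's adjusted p was 0.223, and an exact two-sided permutation test gave p = 0.1, the smallest that 3 libraries against 3 allow, so each direction below is that of libraries by their labels. Fat cell genes were abundant in every library, Adipoq at 2097 to 2496 FPKM in the libraries labelled KO and at 2792 to 5889 FPKM in WT, and Plin1 at 1044 to 1210 and at 1097 to 1281 FPKM. The 14 multiciliated cell genes found of the 16 listed summed to 122, 122 and 59.4 FPKM in KO 1 to KO 3, against 48.4, 6.84 and 7.39 FPKM in WT 1 to WT 3, and 7 of them, Foxj1 among them, stood at a listed 0 in at least 1 library. In WT 3 short transcripts were high and long ones low: genes with a mean transcript length under 1000 bases lay at a median of 0.39 (log2) above their mean over the libraries, and those over 3000 bases at a median of -0.20. In the remaining 5 libraries these medians were -0.12 to -0.03 for short genes and 0.01 to 0.09 for long ones.

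None of the 30 genes passed limma's threshold, a Benjamini-Hochberg adjusted p under 0.05, between the libraries labelled KO and WT, nor did any of the 12539 genes tested (0%). At an unadjusted p under 0.05 there were 4 of the 30 genes, against 13.6% of all genes tested (1700 genes), a similar share. Srebf2 and Stard4 had higher values in the libraries labelled KO, 2 of 30 against a background of 9.13%, and Pmvk and Nr1h3 lower values, 2 of 30 against 4.43%. The groups did not overlap in 2 of the 30 genes, Srebf2 and Nr1h3, 1 higher and 1 lower in the libraries labelled KO, where 22.2% of all genes tested had groups that did not overlap (10.1% higher and 12.2% lower). Of the 30 genes 20 (66.7%) had a lower mean log2 value in the libraries labelled KO, as did 59.2% of all genes tested, and the median log2 difference was -0.11, against -0.05 over all genes tested. Differences are KO minus WT in log2(FPKM + 1), a scale on which the change of low genes is understated.

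**Figure D1:**
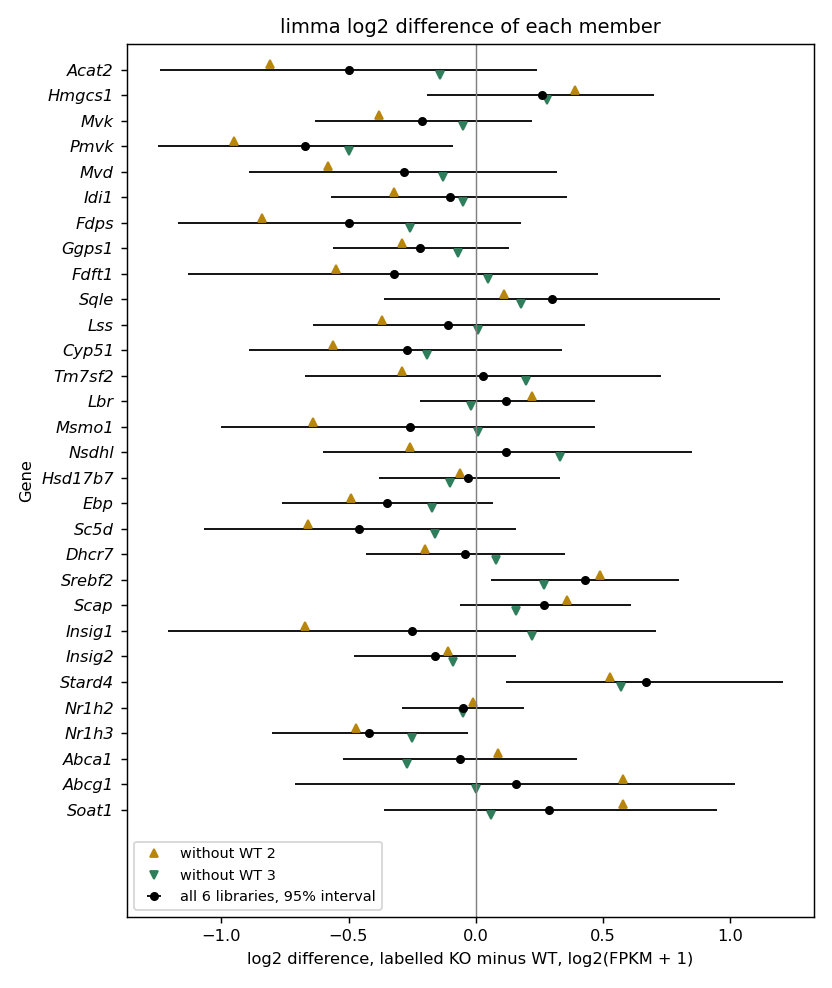
limma log2 difference, libraries labelled KO minus WT, of log2(FPKM + 1), for each of the 30 genes, with its 95% interval (black, 3 libraries against 3) and the difference without WT 2 (triangles up) and without WT 3 (triangles down). The interval leaves out 0 for Srebf2, Stard4, Pmvk and Nr1h3 alone, and most synthesis genes move to the left without WT 2 and to the right without WT 3.

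What set the synthesis genes apart from most genes was where the WT libraries lay. WT 1 and WT 3 stood above, and WT 2 below, every library labelled KO in 11 of the 20 synthesis genes, a pattern that 2.94% of all genes tested showed. Those genes were Acat2, Mvk, Mvd, Idi1, Fdps, Lss, Cyp51, Tm7sf2, Msmo1, Nsdhl and Dhcr7, and the sensing gene Insig1 showed it too. Some margins were small: in Acat2 WT 2 had 30.05 and KO 2 30.2 FPKM, and in Mvk WT 2 had 13.1 and KO 1 13.3 FPKM. This pattern was chosen after the values were seen, so the counts describe these libraries and were not tested. They use values without a correction for transcript length, and short transcripts were high in WT 3. The median of the mean transcript length was 1521 bases for synthesis genes and 1770 bases for all genes tested. WT 2 was the lowest of the 6 libraries in 12 of the 20 synthesis genes (16% of all genes tested), and WT 3 the highest in 13 (40.3%). The spread between WT libraries was larger than that between the libraries labelled KO in 20 of 20 synthesis genes, against 76.1% of all genes tested. The median SD of log2(FPKM + 1) was 0.10 in the libraries labelled KO and 0.50 in WT for the synthesis genes, and 0.12 in the libraries labelled KO and 0.23 in WT for all genes tested. In this bulk tissue, fewer cells of a type and less RNA per cell cannot be told apart.

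**Figure D2:**
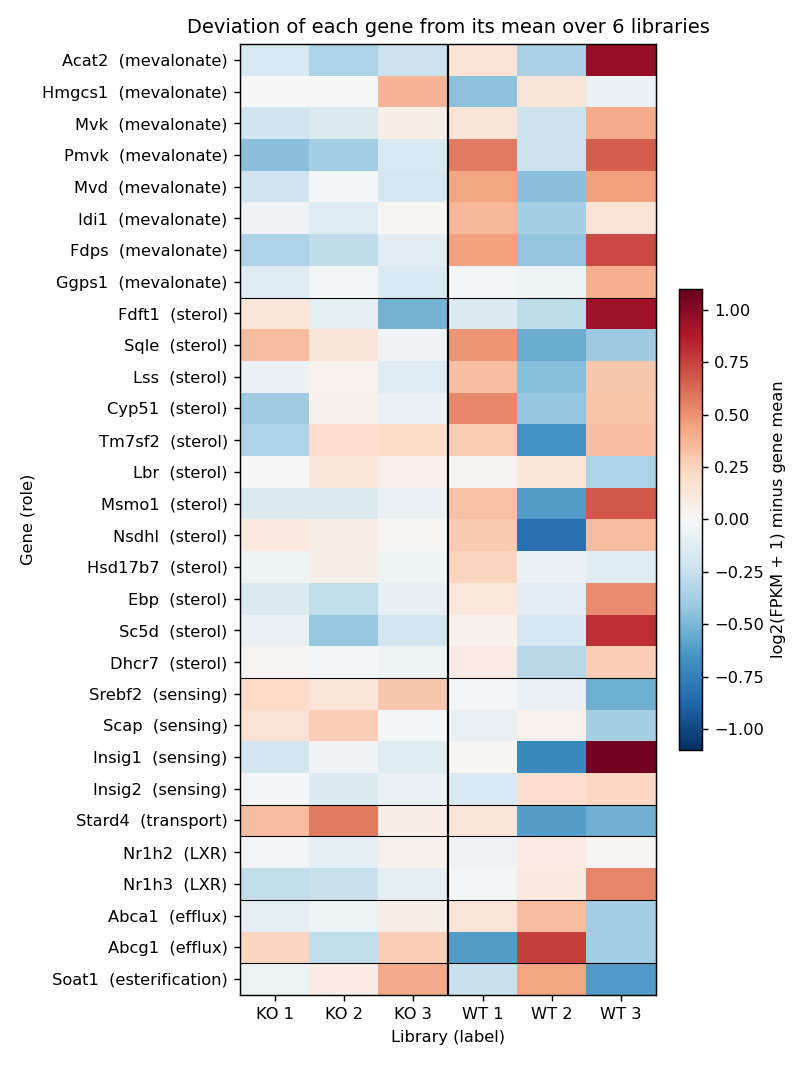
Heat map of log2(FPKM + 1) minus the gene's mean over the 6 libraries, for the 30 genes (rows, by role) in the 3 libraries labelled KO and the 3 labelled WT (columns). Most synthesis rows are pale in the libraries labelled KO, red in WT 1 and WT 3 and blue in WT 2, whereas Abcg1 and Soat1 are red in WT 2 and blue in WT 1 and WT 3.

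The mevalonate steps turn acetyl-CoA into the isoprenoid farnesyl diphosphate. Of their 8 genes 7 had a lower mean log2 value in the libraries labelled KO, against 59.2% of all genes tested. Their median log2 difference was -0.25. Acat2, a thiolase that joins 2 molecules of acetyl-CoA, had 34.5, 30.2 and 32.9 FPKM in KO 1 to KO 3, against 43.1, 30.05 and 76.5 FPKM in WT 1 to WT 3. The high value was that of WT 3, and WT 2 lay just under the libraries labelled KO. limma gave a log2 difference of -0.50 (standard error 0.31, adjusted p = 0.515), and -0.14 without WT 3. Hmgcs1, which makes HMG-CoA, was the 1 mevalonate gene with a higher mean in the libraries labelled KO, at 63.7, 63.8 and 83.0 FPKM against 46.4, 70.4 and 60.3 FPKM in WT 1 to WT 3. Here WT 2 was the highest WT library, unlike in the other 7 mevalonate genes, and the log2 difference of 0.26 (95% interval -0.19 to 0.70) was within the spread. It was 0.09 without WT 1, 0.13 without KO 3 and 0.84 with a covariate for multiciliated genes. The covariate is the mean log2 level of the multiciliated genes tested. It was 3.09, 3.16 and 2.28 in KO 1 to KO 3 and 2.13, 0.46 and 0.476 in WT 1 to WT 3. The covariate is thus partly confounded with group, here and below.

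Pmvk, the second of the pathway's kinases, had the lowest log2 difference of the 30 genes and lies on the plus strand of chromosome 3, from 89454541 to 89469013 in GRCm38. It had 26.8, 28.6 and 33.1 FPKM in KO 1 to KO 3, against 56.0, 31.6 and 59.7 FPKM in WT 1 to WT 3. KO 3 overlapped WT 2, while WT 1 and WT 3 stood well above both. limma put the log2 difference at -0.67 (standard error 0.24), with an unadjusted p of 0.0299 and a limma adjusted p of 0.306. Fdps, the farnesyl diphosphate synthase, had 14.5, 15.2 and 17.1 FPKM in KO 1 to KO 3, against 25.9, 13.6 and 31.6 FPKM in WT 1 to WT 3, a log2 difference of -0.50 (standard error 0.29, limma adjusted p = 0.490) that was -0.84 without WT 2 and -0.26 without WT 3. Mvd, the mevalonate diphosphate decarboxylase, had 4.15, 4.97 and 4.27 FPKM in KO 1 to KO 3, against 7.11, 3.37 and 7.23 FPKM in WT 1 to WT 3. In both genes the libraries labelled KO lay between WT 2 and the other WT libraries. The isomerase gene Idi1 and the mevalonate kinase gene Mvk had smaller differences, of -0.10 and -0.21, in the same arrangement, and that of Mvk was -0.38 without WT 2 and -0.05 without WT 3. Ggps1, which extends farnesyl diphosphate for protein prenylation and so leads away from sterols, varied little apart from WT 3, with 18.4, 20.1 and 18.0 FPKM in KO 1 to KO 3 against 20.1, 19.6 and 26.9 FPKM in WT 1 to WT 3.

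The sterol steps lead from farnesyl diphosphate to cholesterol. Of their 12 genes 8 had a lower and 4 a higher mean log2 value in the libraries labelled KO. Over all genes tested 59.2% were lower. The 12 genes had a median log2 difference of -0.08, and 0 of them had an unadjusted limma p under 0.05. Fdft1, the squalene synthase, had 18.6, 15.8 and 11.5 FPKM in KO 1 to KO 3, against 15.1, 13.8 and 33.0 FPKM in WT 1 to WT 3. It was high in WT 3 alone, and its log2 difference of -0.32 was 0.05 without that library. Lss, which closes squalene epoxide into lanosterol, had 5.26, 5.72 and 4.94 FPKM in KO 1 to KO 3, against 7.22, 3.73 and 7.03 FPKM in WT 1 to WT 3. Cyp51, the lanosterol demethylase, had 7.11, 10.02 and 9.12 FPKM in KO 1 to KO 3, against 14.4, 6.89 and 12.2 FPKM in WT 1 to WT 3. In Lss and Cyp51 WT 2 was the lowest library and WT 1 the highest.

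Msmo1 and Nsdhl act in turn to remove the methyl groups at carbon C-4 of the sterol. Msmo1 had 14.3, 14.3 and 15.3 FPKM in KO 1 to KO 3, against 20.4, 10.2 and 26.4 FPKM in WT 1 to WT 3. Nsdhl had 21.8, 21.1 and 20.3 FPKM in KO 1 to KO 3, against 24.8, 10.9 and 25.8 FPKM in WT 1 to WT 3. The highest library labelled KO exceeded the lowest 1.07-fold in each of these genes, whereas the WT libraries spanned 2.60-fold in Msmo1 and 2.36-fold in Nsdhl. The limma log2 differences were -0.26 (95% interval -1.0 to 0.47) for Msmo1 and 0.12 (95% interval -0.60 to 0.85) for Nsdhl, so a difference of either sign was within the error. Among the late genes, Sc5d, the sterol C5-desaturase, and Ebp, the sterol isomerase, were highest in WT 3, at 84.6 and 42.4 FPKM, against 35.5 to 45.3 and 24.1 to 27.5 FPKM in the libraries labelled KO. Their log2 differences were -0.46 and -0.35, and -0.16 and -0.17 without WT 3. Tm7sf2, a sterol C14-reductase, Dhcr7, the last reductase of one branch, and Hsd17b7, the 3-ketosteroid reductase, had differences of 0.03, -0.04 and -0.03.

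The remaining sterol genes did not follow WT 1 and WT 3 together. Sqle, the squalene epoxidase and a rate-limiting step, had 8.06, 6.84 and 5.94 FPKM in KO 1 to KO 3, against 8.96, 3.88 and 4.39 FPKM in WT 1 to WT 3, a log2 difference of 0.30 (standard error 0.28) that was 0.62 without WT 1 and 0.11 without WT 2. WT 1 was the highest library, and WT 2 and WT 3 were both below every library labelled KO. The epithelial adhesion gene Epcam was also low in WT 2 and WT 3, though in WT 1 it lay below the libraries labelled KO, with 30.8, 34.3 and 16.4 FPKM in KO 1 to KO 3 and 14.2 FPKM in WT 1, against 0.199 and 0.191 FPKM in WT 2 and WT 3. The part of epithelial RNA in Sqle was not tested beyond a covariate for multiciliated genes, with which its difference was -0.65. Lbr, the lamin B receptor with a second sterol C14-reductase activity, had 12.8, 14.3 and 13.4 FPKM in KO 1 to KO 3, against 13.2, 14.2 and 9.95 FPKM in WT 1 to WT 3, and WT 3 was its lowest library.

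**Figure D3:**
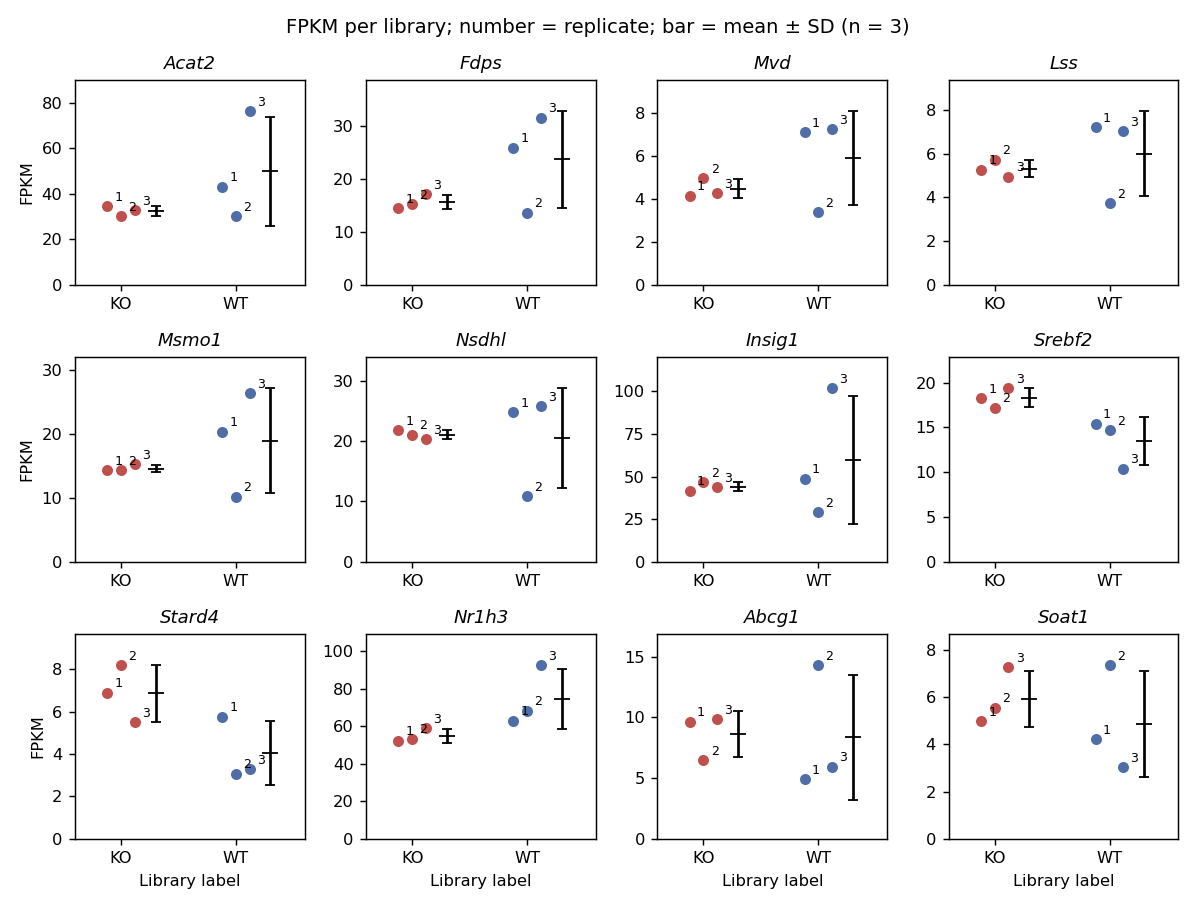
FPKM of 12 of the genes in each library labelled KO (red, left) and WT (blue, right), with the replicate number beside each point and the mean ± SD (n = 3 per group) as a bar. In Fdps, Mvd, Lss, Msmo1, Nsdhl and Insig1 the libraries labelled KO lie between WT 2 below and WT 1 and WT 3 above, in Srebf2 all 3 lie above WT, and in Nr1h3 all 3 lie below WT.

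Among the sensing genes, Srebf2, which encodes the SREBP that drives the synthesis genes, had 18.3, 17.2 and 19.4 FPKM in KO 1 to KO 3, against 15.4, 14.7 and 10.4 FPKM in WT 1 to WT 3. The groups did not overlap, and WT 3 was the lowest library. The means were 18.3 ± 1.06 FPKM in the libraries labelled KO and 13.5 ± 2.68 FPKM in WT (SD, n = 3 each). limma put the log2 difference at 0.43 (standard error 0.16, adjusted p = 0.306), and it was 0.27 without WT 3, 0.29 after a correction for transcript length and GC content and 0.23 with the multiciliated covariate. Srebf2 (ENSMUSG00000022463) lies on the plus strand of chromosome 15, from 82147181 to 82205379 in GRCm38. The targeted gene Zfp251 lies on the same chromosome, from 76851609 to 76871435, as does Sqle, whose groups overlapped. The part of this position in the Srebf2 difference was not tested. Scap, its escort, was also higher on average, at 18.6, 20.1 and 16.3 FPKM in KO 1 to KO 3 against 15.6, 17.0 and 12.6 FPKM in WT 1 to WT 3, but KO 3 overlapped WT 2.

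Insig1, which retains SCAP and is itself a target of SREBP, had the widest WT spread of the 30 genes. It had 41.6, 46.8 and 43.9 FPKM in KO 1 to KO 3, against 48.8, 29.0 and 102 FPKM in WT 1 to WT 3. The WT libraries spanned 3.50-fold and the libraries labelled KO 1.12-fold. limma gave a log2 difference of -0.25 (standard error 0.41), and of 0.22 without WT 3, so its sign rested on that library. Insig2, the paralog that SREBP does not switch on, spanned 1.33-fold among WT libraries, with 34.5, 31.4 and 33.1 FPKM in KO 1 to KO 3 against 30.9, 39.9 and 41.0 FPKM in WT 1 to WT 3. In Insig2, unlike Insig1, WT 1 and not WT 2 was the lowest library.

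Stard4, a soluble carrier that moves cholesterol between membranes and is a target of SREBP, had 6.89, 8.19 and 5.50 FPKM in KO 1 to KO 3, against 5.76, 3.07 and 3.29 FPKM in WT 1 to WT 3. KO 3 lay just below WT 1, and the other WT libraries lay below all of the libraries labelled KO. The log2 difference of 0.67 (standard error 0.23, limma adjusted p = 0.285) was the highest of the 30 genes, and the ratio of mean FPKM was 1.70. As in Sqle, WT 1 was the WT library nearest to those labelled KO, as it was in Epcam and the multiciliated genes. With the multiciliated covariate the log2 difference of Stard4 was -0.12, and that covariate is partly confounded with group, so the 2 cannot be told apart here.

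Of the LXR genes, Nr1h3, which encodes LXR-alpha, the form rich in fat, liver and macrophages, had 52.3, 53.3 and 59.0 FPKM in KO 1 to KO 3, against 62.8, 68.3 and 92.5 FPKM in WT 1 to WT 3. The groups did not overlap, although KO 3 and WT 1 were close, and WT 3 stood highest. The means were 54.9 ± 3.61 FPKM in the libraries labelled KO and 74.5 ± 15.8 FPKM in WT (SD, n = 3 each), a log2 difference of -0.42 with a standard error of 0.16 and a limma adjusted p of 0.333. It was -0.25 without WT 3 and -0.06 with the multiciliated covariate, which is partly confounded with group. Of the 13 adipocyte marker genes 12 were also lower in the libraries labelled KO, against 59.2% of all genes tested. The summed level of the 13 was 39608, 40637 and 47712 FPKM in KO 1 to KO 3. In WT 1 to WT 3 it was 57095, 53973 and 96571 FPKM, and no marker was at 0. Whether the fat cell share has a part in the Nr1h3 difference was not tested. Nr1h2, which encodes the widely expressed LXR-beta, was the steadiest of the 30 genes among WT libraries, with 50.8, 47.9 and 53.3 FPKM in KO 1 to KO 3 against 50.3, 55.1 and 52.0 FPKM in WT 1 to WT 3, a log2 difference of -0.05 (95% interval -0.29 to 0.19).

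The efflux genes differed little on average between the groups and were highest in WT 2. Abca1, which loads cholesterol onto lipid-poor apolipoprotein A-I, had 49.7, 51.2 and 55.8 FPKM in KO 1 to KO 3, against 58.7, 67.9 and 40.6 FPKM in WT 1 to WT 3, a log2 difference of -0.06 (95% interval -0.52 to 0.40). The WT libraries lay on both sides of those labelled KO. Without WT 3, in which long transcripts were low, the difference was -0.27, and after the length and GC correction it was -0.16. The part of transcript length in the Abca1 values was not tested beyond that correction. Abcg1, which passes cholesterol to mature high-density lipoprotein, had 9.64, 6.46 and 9.87 FPKM in KO 1 to KO 3, against 4.89, 14.3 and 5.92 FPKM in WT 1 to WT 3. Its WT libraries spanned 2.92-fold with WT 2 at the top, and its log2 difference of 0.16 (standard error 0.36) was 0.58 without WT 2. Soat1, which stores cholesterol as its ester in the endoplasmic reticulum, had 4.98, 5.55 and 7.27 FPKM in KO 1 to KO 3, against 4.22, 7.36 and 3.04 FPKM in WT 1 to WT 3. Like Abcg1 it was highest in WT 2, and KO 3 came next.

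The macrophage gene Cd68 was arranged partly like Abcg1 and Soat1, and the sums over the macrophage genes listed less so. Cd68, a lysosomal protein of macrophages, had 34.5, 33.9 and 70.8 FPKM in KO 1 to KO 3, against 49.6, 73.3 and 48.7 FPKM in WT 1 to WT 3, so WT 2 and KO 3 were its 2 highest libraries, as in Abcg1 and Soat1. Without Lpl and Cd9, which fat cells also express, 13 macrophage genes were left. They summed to 1045, 1020 and 1407 FPKM in KO 1 to KO 3. In WT 1 to WT 3 the sums were 1151, 1623 and 1630 FPKM. Of the 13, 12 had a lower mean log2 value in the libraries labelled KO, against 59.2% of all genes tested. Abcg1 and Soat1 had a higher one, with log2 differences of 0.16 and 0.29. With Lpl and Cd9 the 15 genes ran from 2998 to 3890 FPKM in the libraries labelled KO and from 3928 to 4811 FPKM in WT, and no macrophage gene was at 0. Unlike Cd68, both sums were highest in WT 3, where Soat1 was at its lowest, 3.04 FPKM, and Abcg1 was at 5.92 FPKM. The part of macrophage number in the efflux values was not tested.

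Synthesis and efflux genes were then set against each other within each library. The median deviation from the gene mean of the 20 synthesis genes was -0.11, -0.02 and -0.07 in KO 1 to KO 3, against 0.26, -0.33 and 0.37 in WT 1 to WT 3, on the log2 scale. That of Abca1, Abcg1, Nr1h2 and Nr1h3 was -0.06, -0.17 and 0.06 in KO 1 to KO 3, against -0.03, 0.22 and -0.18 in WT 1 to WT 3. In WT 2 the synthesis median was low and that of the efflux and LXR genes high. In WT 3 the synthesis median was high, but the other 4 genes went both ways, with Abca1 at -0.39, Abcg1 at -0.38, Nr1h2 at 0.01 and Nr1h3 at 0.54, and their median there was -0.05 after the length and GC correction. Synthesis minus efflux came to -0.05, 0.16 and -0.13 in KO 1 to KO 3 and to 0.29, -0.55 and 0.55 in WT 1 to WT 3. The WT libraries therefore lay on both sides of all those labelled KO, and the means of -0.01 in the libraries labelled KO and 0.09 in WT were closer than the WT libraries were to each other (SD 0.15 and 0.58). WT 2 stood above every library labelled KO in 4 of the 4 efflux and LXR genes and in Soat1, as it did in 37.9% of all genes tested, and below every one in 13 of 20 synthesis genes, against 27.1% of all genes tested. After the length and GC correction the difference was 0.03, 0.16 and -0.04 in KO 1 to KO 3 and 0.26, -0.54 and 0.32 in WT 1 to WT 3, so WT 2 stayed as far apart and WT 3 came nearer.

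**Figure D4:**
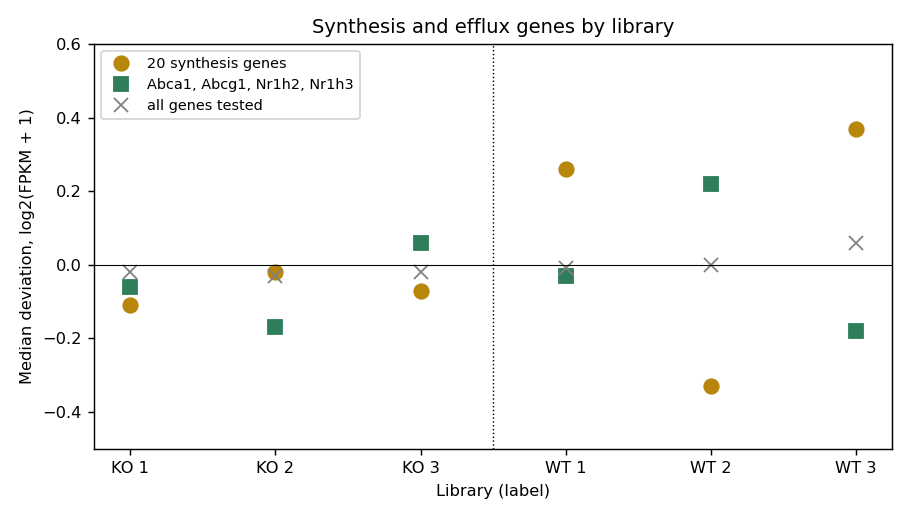
Median deviation of log2(FPKM + 1) from the gene mean in each library labelled KO (left) and WT (right), for the 20 synthesis genes (circles), for Abca1, Abcg1, Nr1h2 and Nr1h3 (squares) and for all genes tested (crosses). The synthesis median lies between -0.11 and -0.02 in the libraries labelled KO and at 0.26, -0.33 and 0.37 in WT 1 to WT 3, and synthesis lies below efflux by 0.55 in WT 2 and above it by 0.55 in WT 3.

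Leaving out a WT library changed how many synthesis genes differed. Without WT 1, 0 synthesis genes were lower at an unadjusted p under 0.05 in the libraries labelled KO. Of the 30 genes Sqle, Srebf2 and Stard4 were higher there (background 9.55%) and Nr1h3 was lower (5.27%), and 0 of the 30 passed the adjusted threshold, which 3.84% of all genes tested (482 genes) did in that fit. Without WT 2, 11 of the 30 genes had a lower value at an unadjusted p under 0.05 in the libraries labelled KO, against 8.35% of all genes tested in that fit. They were 10 synthesis genes, Acat2, Mvk, Pmvk, Mvd, Fdps, Lss, Cyp51, Msmo1, Ebp and Sc5d, with Nr1h3, and 0 of them passed the adjusted threshold. Srebf2, Abcg1 and Soat1 had higher values there, 3 of 30 against 9.29%. WT 2 was the lowest library in 12 of the 20 synthesis genes, so leaving it out lowers their differences by construction. The count of 10 synthesis genes therefore restates that pattern and is not a separate result. The median log2 difference of the synthesis genes was -0.21 with all libraries, -0.37 without WT 2 and -0.05 without WT 3. Without WT 3, 0 synthesis genes had an unadjusted p under 0.05, and of the 30 genes Srebf2 alone was higher (background 8.18%) and Nr1h3 and Abca1 were lower (5.66%). With the multiciliated covariate Hmgcs1 was higher (background 0.558%) and Sqle lower (0.782%) at that level. The fit with sample weights gave WT 1 a weight of 4.02, WT 2 one of 0.472 and WT 3 one of 0.142. WT 1, which was high in Pmvk and Fdps, therefore made up most of its WT mean. With these weights Pmvk and Fdps passed as lower in the libraries labelled KO, with log2 differences of -0.89 and -0.66. Their limma adjusted p was 0.0388 and 0.0491, and over all alternatives it ran from 0.0388 to 1 for Pmvk and from 0.0491 to 1 for Fdps. In that fit 7.74% of all genes tested passed. At an unadjusted p under 0.05 it had 3 of the 30 genes higher and 11 lower, against 15.4% and 15.8% of all genes tested. All 3 libraries labelled KO lay below WT 1 and WT 3 in Pmvk and in Fdps, and WT 2 lay within or below their range.

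As levels over the 6 libraries, the 30 genes spanned from Nr1h3 and Hmgcs1, with means of 64.7 and 64.6 FPKM, to Hsd17b7 at 2.58 FPKM. Abca1, Insig1 and Nr1h2 followed the first pair at 54.0, 51.9 and 51.6 FPKM, and these neighbours did not differ beyond the spread between libraries. Within the synthesis chain, levels of adjacent enzymes differed widely, with Pmvk at 39.3 FPKM beside Mvd at 5.18, and Sc5d at 49.7 beside Dhcr7 at 4.76 FPKM. In these 2 pairs the library ranges did not meet. Sqle and Lss, at 6.34 and 5.65 FPKM, had ranges that overlapped. Abca1 stood well above Abcg1, at 54.0 against 8.51 FPKM, and their ranges did not meet.

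The other genes of the pathway, in a list of 36 with 32 tested, included 0 past the adjusted threshold and 3 at an unadjusted p under 0.05, of which 2 lay higher and 1 lower in the libraries labelled KO, against backgrounds of 9.13% and 4.43%. Arl4c, a small GTPase that LXR switches on, had 16.0, 14.8 and 10.7 FPKM in KO 1 to KO 3, against 9.59, 3.98 and 3.35 FPKM in WT 1 to WT 3, a difference of 1.26 (limma adjusted p = 0.223) that was 0.01 with the multiciliated covariate. Its groups did not overlap, and WT 1, the WT library with the most epithelial RNA, was the nearest to those labelled KO. The part of epithelial RNA in the Arl4c difference was not tested, and the covariate is partly confounded with group. Npc2, which carries cholesterol out of lysosomes, had 143, 120 and 158 FPKM in KO 1 to KO 3, against 213, 168 and 295 FPKM in WT 1 to WT 3, a difference of -0.65 (limma adjusted p = 0.287). The next by p were the transporter gene Abca2 with a difference of 0.27, and Cd36, a scavenger receptor, and Lpcat3, a phospholipid-remodelling target of LXR, with -0.40 and -0.27. The 32 tested genes had a median log2 difference of 0.04, against -0.05 over all genes tested. Of them 20 were higher and 12 (37.5%) lower in the libraries labelled KO, where 59.2% of all genes tested were lower.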

How the data were processed

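Strand-specific mRNA libraries from epididymal fat were made from TRIzol-extracted RNA, per the labels' protocols. The submitters' processing notes name STAR 2.5.4, Cufflinks, Cuffdiff 2.2.1 and the build mm10. For the annotation and depth scaling, the sources used here say nothing. The authors' deposited table was read as FPKM, inferred from those tools and from the values, since no header names the unit. FPKM scaled by the total move when a few abundant genes change. Where a symbol stood on several of the 21853 rows (24 repeats), its highest-mean row was used. Testing covered 12539 genes averaging 1 FPKM or more, the 30 among them. Values were transformed to log2(FPKM + 1) and fitted in limma 3.58.1 (R 4.3.3) with a single group term, a mean-variance trend and Benjamini-Hochberg adjustment over all genes tested. Without counts in the table, no count model was used. From steps in low FPKM values the depths relative to WT 1 were put between 0.651 and 1.028, but only 11.2% to 21.8% of low genes lay on a step, so depth is unknown and no counting intervals are given. Transcript length and GC content are means over a gene's GENCODE vM21 transcripts, and gene positions come from the same annotation. The fit was tested on simulated data. The genes, lists and alternatives were chosen with earlier results of these data known. All 30 genes are named, with, of the 36 other pathway genes, the 3 with the smallest p in each direction and any past the threshold, except 1 that is not reported here. The alternatives were other pseudocounts (0.1 and 0.5) and filters (none, or a 5 FPKM mean), median-ratio and quantile scaling, no trend, sample weights, a replicate block, a multiciliated covariate, a length and GC correction, and each library left out in turn.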

Additional observations from a re-analysis of the deposited data

How the results depend on the processing

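No gene of the 30 passed the adjusted threshold in any alternative except sample weights, where 2 did. Over all genes tested 970 passed with sample weights, 482 without WT 1 and 0 in the other alternatives. With sample weights Zfp251 had a log2 difference of 0.64 and passed, as it did without WT 1, and it ran from 0.65 to 0.78 with a library left out. At an unadjusted p under 0.05, the count of the 30 genes with higher values in the libraries labelled KO ran from 0 to 3 with a library left out and was 1 with the multiciliated covariate. The count with lower values ran from 0 to 11 with a library left out (11 without WT 2), and was 1 with quantile normalization, 11 with sample weights and 1 with the covariate. The 2 counts were both 0 without KO 1 and without KO 2, where 6.65% and 6.8% of all genes tested had such a p, against 13.6% with all libraries. The median log2 difference of the sensing genes, 0.06, was 0.13 with quantile normalization, 0.15 with sample weights, 0.14 with the covariate and 0.14 after the length and GC correction, and ran from 0.01 to 0.19 with a library left out.

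Of the log2 differences of single genes under the alternatives, 475 kept their direction and side of the adjusted threshold, 2 newly passed it, and 31 in 16 genes changed sign, 0 of them past it, and for these the cause was not tested. With a library left out the ranges were -0.32 to 0.05 for Idi1, -0.55 to 0.05 for Fdft1, -0.37 to 0.03 for Lss, -0.29 to 0.21 for Tm7sf2, -0.02 to 0.22 for Lbr, -0.64 to 0.01 for Msmo1, -0.26 to 0.33 for Nsdhl, -0.10 to 0.09 for Hsd17b7, -0.20 to 0.08 for Dhcr7, -0.67 to 0.22 for Insig1, -0.27 to 0.09 for Abca1 and -0.11 to 0.58 for Abcg1. Sample weights gave 0.11 for Fdft1, -0.12 for Sqle, -0.30 for Tm7sf2, -0.10 for Nsdhl and 0.06 for Insig2. The covariate gave -0.65 for Sqle, -0.25 for Tm7sf2, -0.01 for Lbr, -0.38 for Nsdhl, 0.18 for Insig2, -0.12 for Stard4 and 0.08 for Nr1h2. Quantile normalization gave 0.10 for Nr1h2 and 0.07 for Abca1, and the length and GC correction 0.06 for Idi1 and 0.00 for Insig2.

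The replicate numbers were not taken to pair the libraries, since no label says that they do. The deviations of same-numbered libraries correlated at 0.228, -0.20 and 0.22. Those of differently numbered libraries correlated at -0.477 to 0.426, so the correlations cannot tell whether the numbers pair them. With the replicate block 0 of the 30 genes passed and 4 had an unadjusted p under 0.05, the number found without the block, against 13.7% of all genes tested, and the synthesis median was -0.21 in both.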
